A study of Mus musculus with 6 samples.

Results

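Genes of DNA replication and of mitosis were followed in sorted DN2 thymocytes with and without E2A. The set held 38 genes, 19 of replication and 19 of mitosis, chosen by name for their place in the cell cycle. The choice was made with earlier results of these data known. Each gene was read by the brightest probe set that names it alone in the array annotation, and 37 of the 38 had one, out of 18193 genes so read on the array. Ccnb1, which encodes cyclin B1, was named alone by no probe set in the annotation used and is not analysed here. The cells were labelled E2A deficient or wild type, with 3 arrays each. All were DN2 cells sorted from fetal thymus on the FVB background, and the labels give neither the fetal age nor the part of the gene that the mutation removes. Tcf3 encodes both E2A proteins, basic helix-loop-helix activators of lymphocyte genes, and DN2 is the CD4- CD8- stage at which thymic progenitors commit to the T-cell lineage. The comparison asks which of these genes depend on E2A at that stage.

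A cell that is to divide first licenses its replication origins by loading the MCM helicase, then copies its DNA in S phase and segregates the copies on a spindle in mitosis. Transcripts of the replication machinery peak around the start of S phase under E2F transcription factors. Transcripts of the mitotic machinery peak later, under complexes that bind CHR elements and CCAAT boxes in their promoters. In an unsynchronised population the level of either group follows both how many cells are in that phase and how much RNA each of them holds, and bulk arrays cannot tell these apart. Early thymocytes divide several times before they rearrange their receptor genes, and mice that lack E2A develop T-cell lymphomas.

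The intensities were linear, with array medians between 77.4 and 79.0 and an upper quartile over all arrays of 134. Of the 37 measured genes, 1, the thymidylate synthase gene Tyms, had a mean below that quartile. The means of the others lay above it, those of Rfc3 (140) and Kif11 (146) by little. Tcf3 was lower in the E2A-deficient cells, with 236, 229 and 281 in E2A-deficient arrays, against 477, 421 and 414 in wild-type arrays (log2 change -0.81, limma adjusted p = 0.00532). The DN2 markers Kit, Il2ra, Cd44, Thy1 and Il7r were all above the upper quartile, and Thy1 fell (156, 151 and 133 in E2A-deficient arrays, against 365, 427 and 319 in wild-type arrays; log2 change -1.32, limma adjusted p = 0.00158) while the other 4 did not pass. Markers of double-positive (3 of 3 measured), erythroid (4 of 4) and stromal cells (6 of 6) lay below the quartile, as did 5 of 6 myeloid and 4 of 5 B-lineage markers. The summed intensity of the myeloid list was 1315 to 1569 in E2A-deficient and 1258 to 1522 in wild-type arrays, of which Mpo averaged 1036 in E2A-deficient and 907 in wild-type arrays, and its members Ctsg (-0.87) and Lyz2 (-0.50) fell. The summed intensity of double-positive markers was 239 in E2A-deficient and 235 to 247 in wild-type arrays, and that of erythroid markers was 315 to 385 in E2A-deficient and 295 to 320 in wild-type arrays. B-lineage markers summed to 396 to 418 in E2A-deficient and 428 to 459 in wild-type arrays, and stromal markers to 511 to 560 in E2A-deficient and 453 to 502 in wild-type arrays. The part of these markers in the results below was not tested.

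No gene of the set passed the test. Of the 37 genes, 0 were called by limma at a Benjamini-Hochberg adjusted p under 0.05, against 3.46% of all 18193 genes (2.4% higher and 1.06% lower in E2A-deficient cells) and 6.82% of the 6747 genes whose mean lay above the upper quartile. At an unadjusted p under 0.05 there were 4, against 15.7% of all genes and 29.4% of the genes above the upper quartile. These 4 were Pola1 and Nusap1, with lower values in E2A-deficient cells, and Ccne1 and Ccnb2, with higher values. They were also the 4 genes in which the arrays of the groups did not overlap, which was so in 19.9% of all genes. Log2 changes, E2A deficient minus wild type on the log2(intensity + 1) scale, ran from -0.33 to 0.43 over the set. The 95% interval of the change lay within 0.5 log2 units of 0 on both sides for 28 of the 37 genes, 17 of 19 in replication and 11 of 18 in mitosis. The share over all genes was 85.5%, and 70.1% over the genes above the upper quartile. The intervals were not adjusted for the number of genes, and the lowest and highest bounds in the set were -0.57 for Nusap1 and 0.81 for Plk1.

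**Figure D1:**
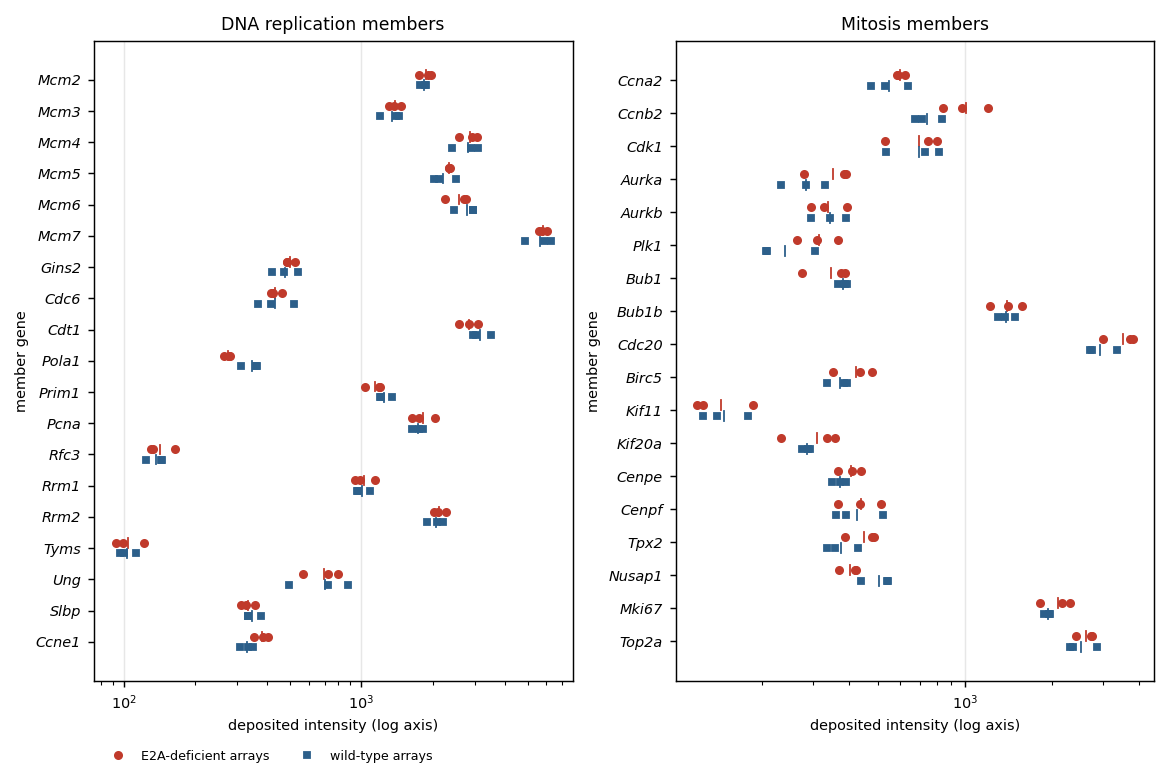
Intensity of each measured gene on each array (log axis), replication genes on the left and mitosis genes on the right. Circles are the 3 E2A-deficient arrays, squares the 3 wild-type arrays and short bars the group means; the groups are apart in Pola1, Ccne1, Ccnb2 and Nusap1 and overlap in the other 33 genes.

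The MCM genes, which encode the subunits of the replicative helicase, overlapped between the groups in every subunit measured. Mcm2 had 1909, 1744 and 1970.2 in E2A-deficient arrays, against 1871, 1772 and 1859.9 in wild-type arrays. Its log2 change was 0.030 with a 95% interval of -0.13 to 0.18, the narrowest of the set. Mcm3 had 1468, 1376 and 1304 in E2A-deficient arrays, against 1200.4, 1437 and 1395 in wild-type arrays, and Mcm4 had 2923, 2569 and 3079 in E2A-deficient arrays, against 3097, 2897 and 2411 in wild-type arrays. In both the groups overlapped, with changes of 0.043 and 0.032. Mcm5 had 2368, 2335 and 2329 in E2A-deficient arrays, against 2492, 2120.3 and 2027 in wild-type arrays. Its 3 E2A-deficient arrays lay inside the range of the wild-type ones, and the change was 0.089 (interval -0.11 to 0.28). Mcm6 had 2758, 2248 and 2702 in E2A-deficient arrays, against 2952, 2949 and 2456 in wild-type arrays, and Mcm7 had 5771, 5581 and 6054 in E2A-deficient arrays, against 6264, 5842 and 4882 in wild-type arrays. Mcm6 had the lowest change of the 6 subunits, -0.12 (interval -0.37 to 0.13), and Mcm7 changed by 0.042. Gins2, a subunit of the GINS complex that joins the helicase at the fork, had 485, 526 and 486 in E2A-deficient arrays, against 541, 472 and 422 in wild-type arrays, a change of 0.069. Limma adjusted p-values of these 7 genes were all at least 0.741. The lowest and highest bounds of their intervals were -0.37 and 0.29, for the probe sets used. Other probe sets above the upper quartile gave 0.31 in Mcm2 (interval 0.044 to 0.58) and 0.27 in Mcm5 (0.011 to 0.54). They gave 0.036 in Mcm4, -0.10 in Mcm6 and 0.16 in Gins2. Such probe sets ran from -0.29 to 0.20 in Mcm3 and from -0.13 to 0.25 in Mcm7.

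The licensing factors Cdc6 and Cdt1 load the helicase onto origins. Cdc6 had 465, 416 and 424 in E2A-deficient arrays, against 519, 418 and 366 in wild-type arrays, and its wild-type arrays spread more widely than the E2A-deficient ones. Cdt1 had 3105, 2583 and 2839 in E2A-deficient arrays, against 3515, 3023 and 2940.3 in wild-type arrays. Its values ran lower in E2A-deficient cells, but the groups overlapped and the interval of the change (-0.15) was -0.38 to 0.073. Rrm1 and Rrm2 of ribonucleotide reductase and Tyms of thymidylate synthesis encode enzymes that make deoxynucleotides. For the probe sets used, their intervals stayed between -0.25 and 0.27. Rrm1 had 942, 986 and 1138 in E2A-deficient arrays, against 1089, 959.7 and 965 in wild-type arrays, a change of 0.022. Rrm2 had 2102, 2013 and 2264 in E2A-deficient arrays, against 2206, 2082 and 1882 in wild-type arrays, a change of 0.049. Other probe sets of Rrm2 above the upper quartile gave 0.15 (interval -0.13 to 0.42) and 0.14 (-0.075 to 0.36). Tyms had 92.5, 121 and 99.1 in E2A-deficient arrays, against 96.9, 113 and 99.97 in wild-type arrays, a change of 0.0083. In all 3 the groups overlapped, and the 3 other probe sets of Tyms were dimmer still.

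At the fork, Pcna is the sliding clamp that holds the polymerases on DNA and Rfc3 a subunit of the clamp loader. Pcna had 1744, 1640.2 and 2039 in E2A-deficient arrays, against 1809.8, 1740.1 and 1636 in wild-type arrays, and Rfc3 had 133, 164 and 130.2 in E2A-deficient arrays, against 144, 144 and 124 in wild-type arrays. Both overlapped between groups, with changes of 0.060 and 0.045. Prim1, the catalytic subunit of primase, had 1032, 1183 and 1203 in E2A-deficient arrays, against 1349, 1204 and 1194 in wild-type arrays, a change of -0.13 (interval -0.33 to 0.062). Pola1, the catalytic subunit of the polymerase that extends the primers, stood apart. It had 279, 263 and 278 in E2A-deficient arrays, against 311, 364 and 360.3 in wild-type arrays. All 3 E2A-deficient values lay below all 3 wild-type values, with means of 274 ± 8.98 in E2A-deficient and 345 ± 29.4 in wild-type arrays (SD, n = 3 each). The log2 change was -0.33 (SE 0.0764, interval -0.51 to -0.15, limma adjusted p = 0.0698), which did not pass. Its other probe set, a dim one, gave -0.38 (limma unadjusted p = 0.0180; adjusted over all probe sets 0.245). When wild-type replicate 1 was left out, Pola1 passed at -0.40 with an adjusted p of 0.0315 by limma (0.0315 to 0.263 over all its alternatives). Pola1 is X-linked, and the arrays differed in Xist, whose part in the result was not tested. Xist, which is made from the inactive X chromosome, had 1901, 1247 and 2154 in E2A-deficient arrays, against 3055, 4456 and 58.7 in wild-type arrays. In the same order of arrays, Pola1 had 279, 263 and 278 in E2A-deficient arrays, against 311, 364 and 360.3 in wild-type arrays.

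Ccne1, cyclin E1, drives entry into S phase. It had 386, 354 and 403 in E2A-deficient arrays, against 334, 309 and 352 in wild-type arrays. The groups did not overlap, though E2A-deficient replicate 2 and wild-type replicate 3 were nearly level, and the log2 change of 0.20 (SE 0.076, interval 0.022 to 0.38, limma adjusted p = 0.252) did not pass. Its other probe set had 229, 239 and 270.1 in E2A-deficient arrays, against 187, 199 and 165 in wild-type arrays. There the change was larger, 0.42 (interval 0.21 to 0.63, limma unadjusted p = 0.00222; adjusted over all probe sets 0.0862). With the mean of the 2 probe sets Ccne1 passed (0.31, limma adjusted p = 0.0318; over all its alternatives 0.0318 to 0.598). Slbp, which binds the stem-loop of histone mRNAs made in S phase, had 328, 313 and 357 in E2A-deficient arrays, against 377, 332 and 333 in wild-type arrays, a change of -0.062. Another Slbp probe set above the upper quartile gave -0.30 (interval -0.74 to 0.15). Ung, the glycosylase that removes uracil from DNA, had 725, 568 and 801 in E2A-deficient arrays, against 881, 723 and 496 in wild-type arrays. It was the most variable of the replication genes, and its interval, -0.48 to 0.52, was the widest among them.

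**Figure D2:**
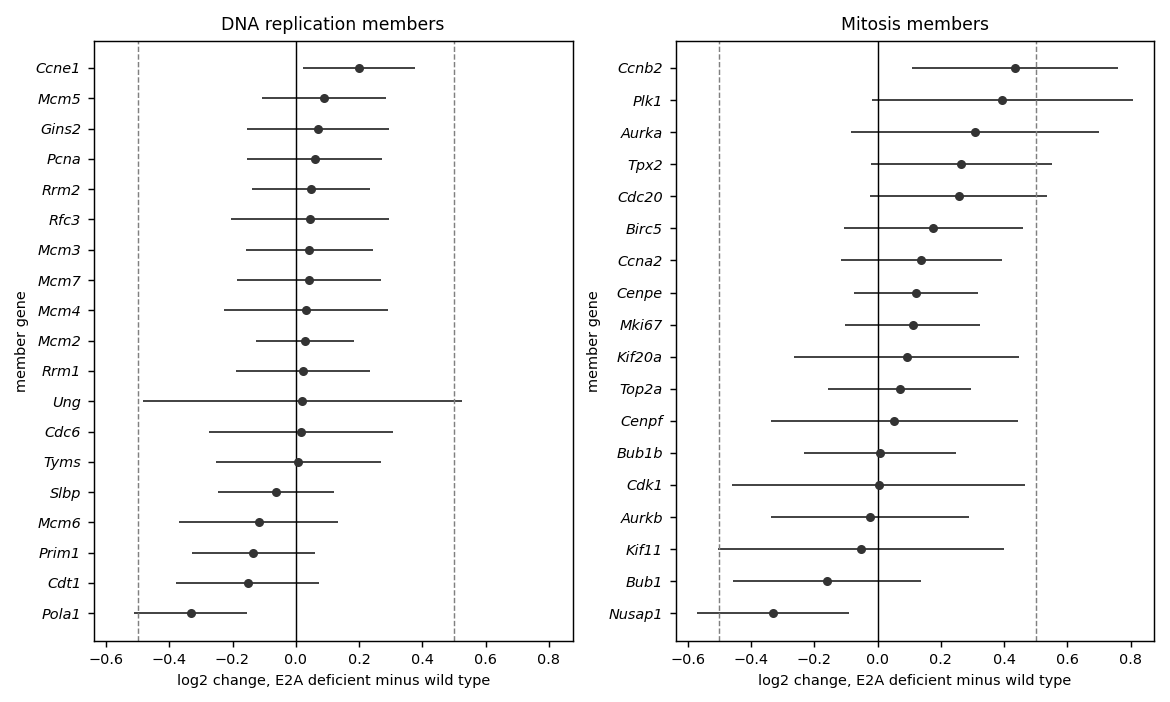
Log2 change of each measured gene, E2A deficient minus wild type, with its 95% interval from limma (3 arrays per group), sorted within replication (left) and mitosis (right). The dashed lines mark 0.5 log2 units either way; the intervals of Pola1, Ccne1, Ccnb2 and Nusap1 leave out 0, and mitosis intervals run to 0.81.

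Over the 19 replication genes the median log2 change was 0.030. Beside it, the median was 0.015 over all genes and 0.076 over the genes above the upper quartile. For the replication genes it was -0.096 after quantile normalization. It was -0.0074 without E2A-deficient replicate 3 and -0.026 without wild-type replicate 3, so its sign depends on the scaling and on single arrays. Values were above 0 in 14 of the 19, against 56.5% of all genes. For the 18 measured mitosis genes described next the median was 0.10, and 0.00397 after quantile normalization, with 14 of the 18 above 0. It ran from 0.038 without E2A-deficient replicate 2 to 0.19 without E2A-deficient replicate 1 when each array was left out in turn.

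Cyclin-dependent kinase 1 and its cyclins drive entry into mitosis. Cdk1 had 532, 748 and 803 in E2A-deficient arrays, against 533, 816 and 728 in wild-type arrays. Its group means were 694 ± 143 in E2A-deficient and 693 ± 145 in wild-type arrays (SD, n = 3 each), so the arrays of each group differed far more than the groups did, and the change was 0.0038 (interval -0.46 to 0.47). Ccna2, cyclin A2, had 586, 622 and 588 in E2A-deficient arrays, against 473, 639.6 and 530.3 in wild-type arrays, a change of 0.14 with overlapping groups. Ccnb2, cyclin B2, had 839.9, 982 and 1199 in E2A-deficient arrays, against 672, 836 and 712 in wild-type arrays. The E2A-deficient values were all higher, though E2A-deficient replicate 1 and wild-type replicate 2 were nearly level. The log2 change of 0.43 (SE 0.139, interval 0.11 to 0.76) was the largest of the set in size, and it did not pass (limma adjusted p = 0.171; over all its alternatives 0.0862 to 0.717).

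The mitotic kinases were Plk1, Aurka and Aurkb, which act on spindle poles, centrosomes and centromeres. Plk1 had 264, 310.0 and 366 in E2A-deficient arrays, against 207, 305 and 208 in wild-type arrays. The groups overlapped through wild-type replicate 2, and the change was 0.39 (interval -0.019 to 0.81, limma adjusted p = 0.347). Aurka had 278, 383 and 391 in E2A-deficient arrays, against 232, 331 and 284 in wild-type arrays, a change of 0.31 (interval -0.083 to 0.70). Aurkb had 294, 392 and 326 in E2A-deficient arrays, against 343, 389 and 295 in wild-type arrays, a change of -0.023. Birc5, survivin, which works with Aurkb in the chromosomal passenger complex, had 351, 435 and 478 in E2A-deficient arrays, against 382, 394 and 336 in wild-type arrays, a change of 0.18. In all 4 genes the arrays of the groups overlapped.

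The spindle checkpoint kinase genes Bub1 and Bub1b and Cdc20, the activator of the anaphase-promoting complex that the checkpoint holds back, did not pass either. Bub1 had 275, 386 and 373 in E2A-deficient arrays, against 392, 386 and 366 in wild-type arrays, with a single low E2A-deficient array, and changed by -0.16. Bub1b had 1221, 1406 and 1580.2 in E2A-deficient arrays, against 1489.6, 1375 and 1306 in wild-type arrays, a change of 0.0072. Cdc20 had 3002, 3796 and 3726 in E2A-deficient arrays, against 2744, 3351 and 2711 in wild-type arrays. Its E2A-deficient values ran higher (change 0.26, interval -0.024 to 0.54), and its 2 other probe sets gave 0.28 and 0.24.

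Motor and kinetochore genes overlapped between the groups in the probe sets used. Kif11, the kinesin that pushes spindle poles apart, had 119.5, 125 and 186 in E2A-deficient arrays, against 178, 125 and 139 in wild-type arrays. In another Kif11 probe set the groups were apart, with 117, 133 and 132 in E2A-deficient arrays, against 164, 141 and 139 in wild-type arrays. Its change was -0.21 (limma unadjusted p = 0.0412, adjusted over all probe sets 0.367), and a further probe set gave -0.035. Kif20a, a kinesin of cytokinesis, had 233, 357 and 336 in E2A-deficient arrays, against 274, 293 and 287 in wild-type arrays. The wild-type arrays lay close together in Kif20a and the E2A-deficient ones lay on either side of them. Cenpe, the kinetochore kinesin, had 365, 438 and 408 in E2A-deficient arrays, against 390.1, 372 and 348 in wild-type arrays, and Cenpf, a large kinetochore protein, had 364, 513 and 436 in E2A-deficient arrays, against 390.4, 521 and 359.7 in wild-type arrays. In the probe sets used, changes of the 4 ran from -0.053 in Kif11 to 0.12 in Cenpe, with limma adjusted p-values between 0.604 and 0.954.

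The microtubule-binding genes Tpx2 and Nusap1 had changes of opposite sign. Tpx2, which activates Aurora A on the spindle, had 385, 486 and 479 in E2A-deficient arrays, against 336, 429 and 358 in wild-type arrays, a change of 0.26 (interval -0.022 to 0.55). Its brightest other probe set gave -0.12. Nusap1, which bundles spindle microtubules, had 367, 418 and 421 in E2A-deficient arrays, against 438, 542 and 541 in wild-type arrays. All E2A-deficient values were below all wild-type values, with a change of -0.33 (SE 0.102, interval -0.57 to -0.092, limma adjusted p = 0.155). When wild-type replicate 1 was left out, Nusap1 passed at -0.43 with an adjusted p of 0.0492 by limma (0.0492 to 0.461 over all its alternatives). The proliferation marker Mki67 had 1824, 2301 and 2163 in E2A-deficient arrays, against 1872, 1972 and 1950.0 in wild-type arrays, a change of 0.11 (interval -0.10 to 0.33). Top2a, the topoisomerase that untangles sister chromatids, had 2419, 2748 and 2717 in E2A-deficient arrays, against 2371, 2850.2 and 2315 in wild-type arrays, a change of 0.069 (interval -0.16 to 0.30). Another Top2a probe set above the upper quartile gave -0.11 (interval -0.57 to 0.35).

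Members had 85 probe sets in all, and 28 members had more than 1. Of the 48 probe sets that were not used, 0 were called in the fit per probe set (limma, Benjamini-Hochberg) and 5 had an unadjusted p under 0.05. These 5 belonged to Ccne1, Pola1, Mcm2 (0.31), Mcm5 (0.27) and Kif11 (-0.21). Of the 27 that were not dim, 22 gave a change of the same sign as the probe set used. Among the 37 used, 19 were of a type that can hybridise to more than 1 transcript.

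The promoters differ in the motifs that are tied to the phases of the cycle. Windows from 250 bases before to 50 bases after the transcription start, from RefSeq on build GRCm38.p6, were found for 32 of the 38 genes (33 windows). The motifs searched on both strands were 4 forms of the E2F core, namely TTCGCGC with its variant TTGGCGC and further TTCCCGC with its variant TTGCCGC. They were also the CHR element in the forms TTTGAA and TTCGAA, the CCAAT box spelled as its name, and the E-box forms CAGCTG and CAGGTG, the kind of site that E2A binds. The E2F form TTGGCGC can share letters with a CCAAT box on the opposite strand, and E2F forms can overlap each other. A window with several matches to a motif was counted once for it. An E2F core was found in 12 of 18 replication windows and 3 of 15 mitosis windows, against 9.57% of all 32851 windows and 12.1% of those of protein-coding genes. A CHR element was found in 11 of 15 mitosis windows and 3 of 18 replication windows, against 19.2% of all windows. CCAAT boxes were in 13 of 15 mitosis and 13 of 18 replication windows, against 37.4%. An E-box of these letters was in 3 of 15 mitosis and 6 of 18 replication windows, against 32.9%. A match describes the letters and does not show that a factor binds there. The windows of the 2 genes with the largest changes in size in each list are shown, with matches in capitals. By that rule Nusap1, whose groups were apart, is not shown. Its window held an E-box and no E2F, CHR or CCAAT match.
Pola1 (chrX:93632106-93632405, minus strand): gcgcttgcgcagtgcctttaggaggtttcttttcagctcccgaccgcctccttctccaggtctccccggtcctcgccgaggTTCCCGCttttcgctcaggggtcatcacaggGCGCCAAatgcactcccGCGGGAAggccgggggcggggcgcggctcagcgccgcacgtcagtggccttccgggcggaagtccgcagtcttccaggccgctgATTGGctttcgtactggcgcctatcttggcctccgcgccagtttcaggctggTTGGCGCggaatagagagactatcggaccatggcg
Ccne1 (chr7:38107441-38107740, minus strand): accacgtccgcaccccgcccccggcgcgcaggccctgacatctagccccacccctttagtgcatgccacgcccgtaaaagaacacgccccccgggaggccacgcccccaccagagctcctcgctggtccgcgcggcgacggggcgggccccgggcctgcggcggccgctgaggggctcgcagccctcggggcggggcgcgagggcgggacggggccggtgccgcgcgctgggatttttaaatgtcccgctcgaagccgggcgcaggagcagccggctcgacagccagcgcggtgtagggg
Ccnb2 (chr9:70421505-70421804, minus strand): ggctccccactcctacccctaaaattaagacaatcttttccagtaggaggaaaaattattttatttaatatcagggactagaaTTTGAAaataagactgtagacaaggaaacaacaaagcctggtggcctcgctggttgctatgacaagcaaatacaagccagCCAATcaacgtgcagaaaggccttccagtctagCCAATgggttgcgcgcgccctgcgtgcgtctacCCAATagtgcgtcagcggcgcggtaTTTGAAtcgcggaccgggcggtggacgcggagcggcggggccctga
Plk1 (chr7:122159185-122159484, plus strand): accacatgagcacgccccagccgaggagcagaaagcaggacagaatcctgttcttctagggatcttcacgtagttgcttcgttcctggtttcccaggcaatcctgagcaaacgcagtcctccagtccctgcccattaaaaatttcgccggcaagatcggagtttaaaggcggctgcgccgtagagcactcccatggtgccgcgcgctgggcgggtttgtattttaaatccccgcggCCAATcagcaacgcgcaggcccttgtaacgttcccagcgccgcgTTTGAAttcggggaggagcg
Pola1 holds 4 E2F cores and a CCAAT box read on the other strand as ATTGG. Ccne1 holds none of the motifs in this window. Ccnb2 holds 3 CCAAT boxes, each starting 33 bases after the one before it, and a TTTGAA element at position 5 after the start site besides one far upstream. Plk1 holds a CCAAT box at position -14 and a TTTGAA element at position 31, counted from the start site.

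Mitosis genes varied together between the E2A-deficient arrays. E2A-deficient replicate 1 was the lowest of its group in 18 of the 18 mitosis genes, against 29.3% of all genes, and in 4 of the 19 replication genes. Wild-type replicate 1 was the lowest of its group in 9 of the 18 mitosis genes, against 26.1% of all genes, and in 3 of the 19 replication genes. Relative to each gene's mean over the 6 arrays, the mitosis genes averaged -0.17, 0.15 and 0.18 log2 units on E2A-deficient arrays 1 to 3, against -0.12, 0.084 and -0.12 on wild-type arrays 1 to 3. The replication genes averaged -0.0025, -0.050 and 0.047 on E2A-deficient arrays, against 0.096, 0.013 and -0.10 on wild-type arrays. The difference between the group averages was 0.10 in mitosis and -0.0038 in replication, smaller than the range of 0.35 that mitosis genes spanned within the E2A-deficient group. The array with the lowest average differed between the lists, since in replication wild-type replicate 3 was the lowest of all 6 in 9 of 19 genes. The median coefficient of variation was 15.1% among E2A-deficient and 12.0% among wild-type arrays in mitosis genes, and 6.77% among E2A-deficient and 8.52% among wild-type arrays in replication genes. Genes above the upper quartile had 8.16% among E2A-deficient and 9.94% among wild-type arrays. This pattern was noticed in the data.

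Of the 6 arrays, E2A-deficient replicate 1 moved the median of the mitosis genes most when it was left out. That median was then 0.19, and 10 of them had an unadjusted p under 0.05, against 2 with all arrays and 13.5% of all genes in that fit. In that fit 0 of the 37 genes were called (lowest limma adjusted p = 0.113). The array left out was the lowest of its group in 18 of the 18 mitosis genes, so leaving it out had to raise all their changes. The 10 are therefore no separate support for a difference. With all arrays, 15.7% of all genes and 29.4% of those above the upper quartile had an unadjusted p under 0.05. The ratio of the 5' to the 3' beta-actin control, a sign of how much full-length RNA was labelled, was -2.60, -2.65 and -2.74 log2 units on E2A-deficient arrays 1 to 3, against -3.26, -2.63 and -3.35 on wild-type arrays 1 to 3. With that ratio as a covariate the median change of the mitosis genes was 0.10 and that of the replication genes -0.016. E2A-deficient replicate 1 had the lowest mitosis average and the highest actin ratio of its group, and wild-type replicate 2 had the highest of both in its own. The part of RNA length in the array pattern of the mitosis genes was not tested.

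**Figure D3:**
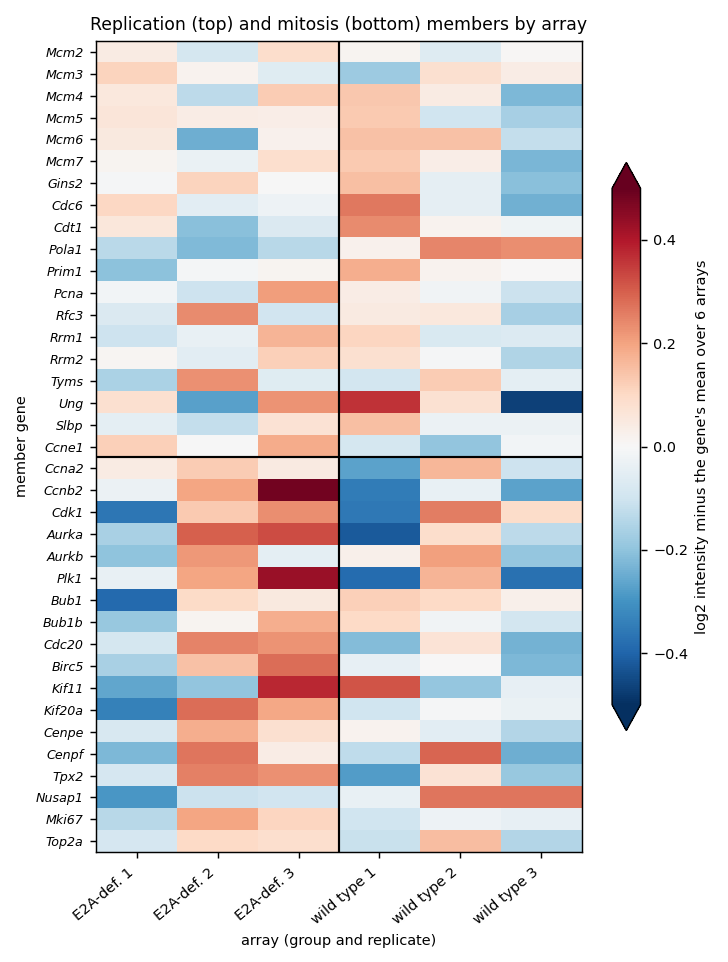
Each measured gene on each array as log2 intensity minus the gene's mean over the 6 arrays (colour, limited to 0.5 either way), E2A-deficient arrays left and wild-type arrays right, replication genes above the line. In the mitosis block E2A-deficient replicate 1 is low throughout its group, and wild-type replicates 1 and 3 are low in most genes.

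The other genes of both processes gave the same count of calls. Of 53 further replication genes 50 were measured and 0 were called in either direction by limma. At an unadjusted p under 0.05 there were 8, 4 higher and 4 lower. The share was 15.7% over all genes and 29.4% over those above the upper quartile. Groups did not overlap in 9 of the 50, against 19.9% of all genes. The median change of the 50 was 0.019. The nearest to the threshold was E2f8, an E2F family repressor, with 476, 474 and 473 in E2A-deficient arrays, against 398, 404 and 369 in wild-type arrays (change 0.28, SE 0.0587, limma adjusted p = 0.0502). The groups did not overlap, and E2f8 passed under 3 of its 17 alternatives (limma adjusted p from 0.0396 to 0.398). Orc6, a subunit of the origin recognition complex, had 419, 397 and 431 in E2A-deficient arrays, against 359, 368 and 328 in wild-type arrays, a change of 0.24 (adjusted p = 0.126). Pole, the leading-strand polymerase, had 554, 555 and 601 in E2A-deficient arrays, against 673, 635 and 678 in wild-type arrays, a change of -0.22 (adjusted p = 0.131). Pole values were lower in all 3 E2A-deficient arrays than in the wild-type ones. The 17 further genes of polymerases and their fork partners, Pole among them, had changes from -0.24 to 0.39 with a median of 0.045.

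Of 64 further mitosis genes all were measured and 0 were called by limma. At an unadjusted p under 0.05 there were 12, 6 higher and 6 lower. The share was 15.7% over all genes and 29.4% over those above the upper quartile. The median change of the 64 was 0.0057, beside 0.10 in the 18 mitosis members. The median was 0.015 over all genes and 0.076 over those above the upper quartile. Wee1, the kinase that holds Cdk1 inactive, had 204, 199 and 209.8 in E2A-deficient arrays, against 240.4, 247 and 224 in wild-type arrays, a change of -0.21 (limma adjusted p = 0.134). Smc4, a core subunit of condensin, had 1077, 1417 and 1393 in E2A-deficient arrays, against 1595, 1638 and 1723 in wild-type arrays, a change of -0.36 (0.150). Cks1b, a small partner of cyclin-dependent kinases, had 4438, 4579 and 4967 in E2A-deficient arrays, against 4165, 4012 and 3734 in wild-type arrays, a change of 0.23 (0.151). In all 3 the arrays of the groups did not overlap, which was so in 10 of the 64 genes and in 19.9% of all genes. E2A-deficient replicate 1 was the lowest of its group in 49 of these 64 genes and in 21 of the 50 further replication genes, against 29.3% of all genes.

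**Figure D4:**
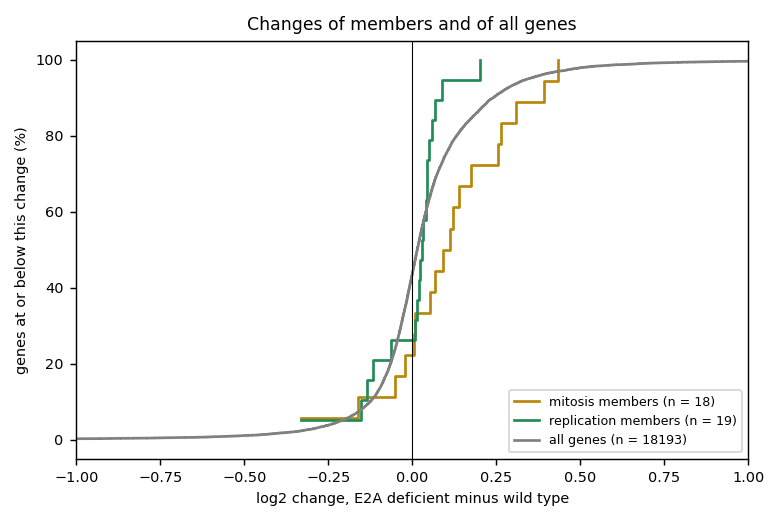
Cumulative share of genes (vertical axis, %) at or below each log2 change, E2A deficient minus wild type, for 18 mitosis genes, 19 replication genes and all 18193 genes, drawn between -1 and 1. The curve of the replication genes is steep near 0 and crosses that of the mitosis genes there. At the middle of the vertical axis the mitosis curve lies to the right, with a median of 0.10 against 0.030, and its median was 0.00397 after quantile normalization. Genes above the upper quartile, not drawn apart, had a median of 0.076.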

How the data were processed

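The data were 6 Affymetrix mouse expression arrays. Per the labels' protocols, RNA of cells sorted into lysis buffer was amplified by repeated rounds of in vitro transcription into biotinylated cRNA, which reads mostly 3' ends. The authors deposited 1 linear intensity per probe set and array. RMA is the only tool in the submitters' processing notes, with no version, and the sources used here do not say how linear values were made from it. The number of arrays limits the precision, and no counts or depths apply.

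The design was written for log2(intensity + 1) of linear values. With 64 control probe sets left out, 34945 of 45037 probe sets named 1 gene (932 several, 9160 none), and each of 18193 genes took its brightest probe set. No filter was applied. Entrez identifiers of 34741 probe sets matched RefSeq (GRCm38.p6), used for names and promoter sequences. Groups came from the labels, which do not say that replicates were separate animals, so p-values measure the spread between these samples, which may be technical. Genes were tested in a linear model in limma 3.58.1 (R 4.3.3), two-sided, with Benjamini-Hochberg adjustment over all genes and a threshold of 0.05. Intervals are limma's 95% intervals. The steps were tested on simulated data. Plots used matplotlib 3.10.9 under Python 3.11.15.

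The members, lists and tests were chosen with earlier results of these data known. The text names every member, Tcf3, the called genes of the lists of other pathway genes or else the 3 with the smallest p, and DN2 or called markers; Chek1, Dck, Dnmt1 and Exo1 in the closing section, Xist and Mpo were named after their values were seen. The fits were repeated with the replicate number as a block, leaving out single arrays, after quantile normalization or median centring, over the brighter genes alone, with trended robust variances or array weights, with other choices of probe set, with pseudocounts of 0 and 16, and with beta-actin 5'/3' as covariate.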

Additional observations from a re-analysis of the deposited data

How the results depend on the processing

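The 37 members were refitted under 17 alternatives, which gave 623 values, of which 3 passed (Pola1 and Nusap1 without wild-type replicate 1, Ccne1 with the mean of its probe sets) and 72, in 23 members, differed in sign from the value reported. Those 72 were at most 0.22 in size, and 1 of them, Mcm7 after quantile normalization (-0.13), had an unadjusted p under 0.05. Called replication members numbered 0 to 1 when each array was left out in turn and 1 when probe sets were averaged, while called mitosis members 0 to 1 when each array was left out. The median change of the replication members went to -0.096 after quantile normalization, and that of the mitosis members to 0.00397. Of the other replication genes, 4 were called after quantile normalization (Chek1 at -0.37, Dck at -0.47, Dnmt1 at -0.33 and Exo1 at -0.31), and 1, E2f8, with array weights, without shared probe sets (1) and with a pseudocount of 16 (1). Of the other mitosis genes, 1 was called after quantile normalization (Wee1, -0.27). Over all genes the count of calls, 630, was 320 to 533 when each array was left out and 123 after adjustment for the beta-actin ratio, where Tcf3 (-0.75) did not pass (limma adjusted p = 0.106; over its alternatives 9.9e-04 to 0.106). Ctsg and Lyz2 were not among the genes brighter than the median, and Lyz2 passed under 12 of 16 alternatives. The cause of these differences was not tested.

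The sample titles join arrays of different groups by nothing but the replicate number. Over all genes, deviations of same-numbered arrays from their group means correlated at 0.017, 0.017 and -0.042. With the replicate number as a block 459 genes, 0 replication members and 0 mitosis members were called. In that fit 6 mitosis members had an unadjusted limma p under 0.05, against 2 without the block and 15.6% of all genes in that fit. Replication members numbered 2 with and without it. With 3 arrays per group, intervals of up to 0.81 log2 units from 0 limit what could be seen in single mitosis genes.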
